A study of Mus musculus with 33 samples.

Results

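Ace, Cd300e, Adgre4, Treml4, Eno3, Pou2f2 and Spn are 7 genes used to recognise nonclassical monocytes. They were taken as a fixed list, 7 of the 32285 genes in the count tables, and were followed across monocytes, tissues and biotin sorts. Nonclassical monocytes are the Ly6C-low cells that patrol the inner wall of blood vessels, and in mice most of them arise from classical Ly6C-high monocytes under the nuclear receptor NR4A1. Cd300e, Adgre4 and Treml4 encode surface receptors of the CD300, adhesion G protein-coupled and TREM-like families. Spn encodes the sialoglycoprotein CD43, Ace the angiotensin-converting enzyme, a membrane peptidase, Eno3 the muscle form of the glycolytic enzyme enolase, and Pou2f2 the octamer-binding transcription factor OCT2.

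The data were single-cell RNA-seq counts from mice in a study of bone metastasis that used SAMENT, a niche tagging method in which cells near injected tumour cells acquire biotin. Lung, liver, brain and leg bones were taken after overnight labelling with the substrate, made into single cells, and split by sorting into cells with biotin (positive) and without (negative). Each of these 8 groups held 4 samples from mice given an intracardiac injection, and 1 further pooled bone sample followed an injection that the labels abbreviate as iia and do not expand (IIA below). It combined 12 hashtagged samples, 6 biotin positive and 6 biotin negative, numbered 1 to 6. Both sorts came from injected and labelled animals, so that no group is free of either. The labels used here give no strain, age or tumour line, and do not state whether equal replicate numbers mark 1 animal, so that p-values measure the spread between these samples. Tagging marks contact or closeness and is not a cell type marker.

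Each intracardiac sample held 497940 to 44874529 UMIs (unique molecules counted once) in 110 to 3533 barcodes, and the IIA sample held 153488427 UMIs in 26666 barcodes, of which 22362 cells were assigned to 1 hashtag and kept. No barcode was shared by intracardiac samples of the same number in 112 pairs, and 341 were shared over 384 pairs of different number, at most 7 in a pair. Cells were grouped without the 7 genes, so that the classes did not depend on them directly. The nonclassical-like class was 1 intracardiac cluster of 1034 cells, with 11 of the 13 other nonclassical markers among its leading 100 genes, and the classical-like class was 3 clusters of 6472 cells. In the IIA sample these classes held 498 and 1344 cells. The nonclassical-like cells were shallower than the classical-like ones, with median depths of 2879 and 8093 UMIs per cell in the intracardiac samples. Levels below are counts per 1000000 (CPM), the UMIs of a gene per 1000000 UMIs of a class in 1 sample. A sample was used where it held at least 10 cells of the class, and levels of different genes are not compared, since both kinds of library count transcript ends.

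All 7 genes were higher in nonclassical-like than in classical-like monocytes of the same sample, in 21 of 21 intracardiac samples that held both. Their ranges over the samples did not overlap between the classes for any of the 7, and neither did those of 0.716% of the 9503 genes tested in monocytes, counted as higher in the nonclassical-like class. This is a description with no test, because the classes were drawn from the same cells.

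Cd300e set the classes furthest apart. Its level was 74.7 to 869 CPM in nonclassical-like cells, with a median of 186, against 0 to 2.40 in classical-like cells. Pooled over the samples this was 193 against 0.542, a 356-fold ratio that rests on 30 UMIs in the classical-like cells. Eno3 had medians of 138 and 2.31, and its pooled ratio was 71.7-fold. Ace had medians of 288 and 5.21, and its pooled ratio was 48.3-fold. Its lowest value in the nonclassical-like class, 35.2, came from biotin negative liver sample 3.

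Treml4 and Adgre4 were present at a low level in classical-like cells. The medians were 194 against 15.2 for Treml4 and 298 against 16.2 for Adgre4, and the pooled ratios were 17.7-fold and 16.5-fold. Spn, which other leukocytes also carry, had medians of 204 and 24.8 and a pooled ratio of 7.38-fold. Pou2f2 had the narrowest separation, with medians of 821 and 118 and a pooled ratio of 6.40-fold.

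**Figure D1:**
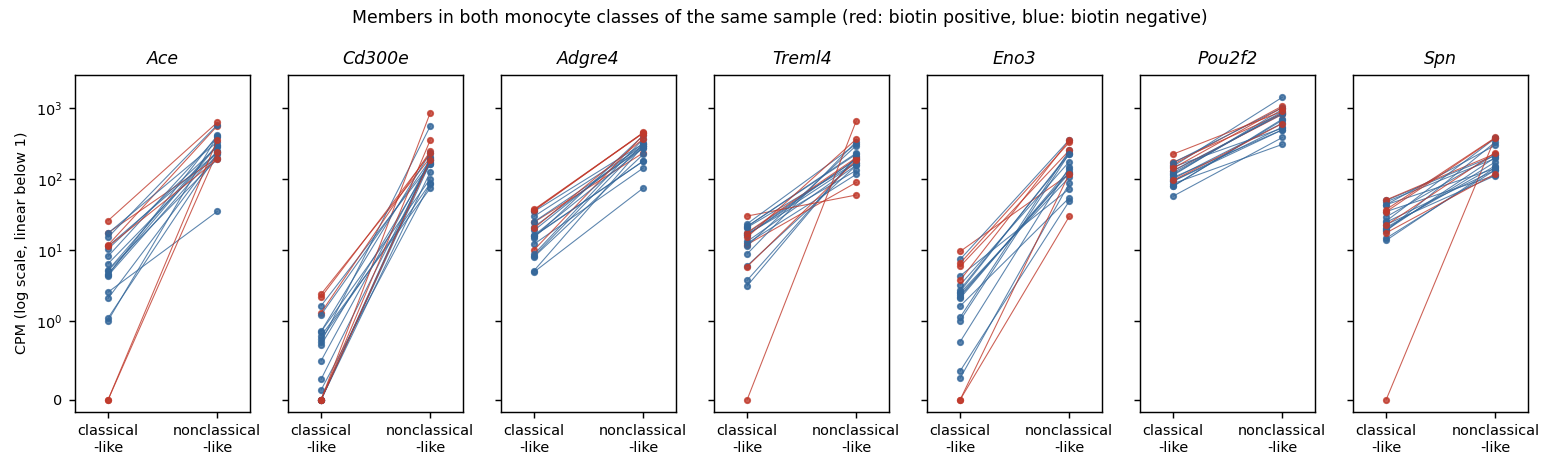
Level of each gene, in CPM on a log axis that is linear below 1, in classical-like and nonclassical-like monocytes of the same intracardiac sample; each line joins the classes of 1 sample, red for biotin positive and blue for biotin negative samples. In all 7 panels the lines run upward in 21 of 21 samples, and the lowest nonclassical-like Pou2f2 value, 310, lies above the highest classical-like value, 226.

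The IIA bone samples, made with 5' end libraries, gave the same order for most of the genes in the 8 hashtagged samples with enough cells of both classes. Ace, Cd300e, Adgre4 and Pou2f2 were higher in the nonclassical-like class in 8 of 8 samples without overlap of the ranges, as were 3.04% of 8742 genes. Treml4, Eno3 and Spn were higher in 7 of 8 samples, and their ranges overlapped. Cd300e had 151 UMIs in the nonclassical-like cells of these samples and 0 in the classical-like cells. The pooled Spn ratio was 1.86-fold, 141 against 75.9 CPM, and that of Pou2f2 was 4.00-fold.

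Depth per cell was then equalised by drawing 1500 UMIs from every cell with at least that many, which kept 872 of the 1034 nonclassical-like and 6440 of the 6472 classical-like cells of the intracardiac samples. A UMI of Pou2f2 was seen in 58.1% of nonclassical-like and 16.3% of classical-like cells. The shares were 32.7% and 1.20% for Ace, 31.7% and 3.14% for Adgre4, and 26.0% and 2.28% for Treml4. They were 25.7% and 4.16% for Spn, 24.0% and 0.140% for Cd300e, and 20.8% and 0.388% for Eno3. Neutrophil-like cells, in which free RNA alone can give some UMIs of these genes, had a median depth of 3912 UMIs and thinned shares of 0.118% for Ace, 0.124% for Cd300e, 0.152% for Adgre4, 0.290% for Eno3 and 0.498% for Pou2f2, and 1.57% for Treml4 and 1.56% for Spn. At least 3 of the 7 genes were seen together in 39.9% of thinned nonclassical-like cells and in 0.497% of classical-like cells. Before thinning, the nonclassical-like shares ran from 31.1% for Eno3 to 74.5% for Pou2f2.

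Across the 21 cell classes of the biotin negative intracardiac samples, all 7 genes had their highest mean in nonclassical-like monocytes, but they differed in which class came next. Eno3 had a wide gap to the next class. Its mean was 159 ± 87.3 CPM (SD, n = 15) in nonclassical-like monocytes and 14.2 ± 11.7 (SD, n = 15) in the next class, an unnamed cluster led by H2-Eb1 and Cd209a, and the ranges did not overlap. An unnamed cluster led by Apoc2, Krt80 and Ceacam1, with 511 cells, held intermediate levels of all 7 genes, for example an Ace mean of 45.5 ± 52.1 (SD, n = 15).

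Cd300e, Adgre4 and Treml4 shared a second site, a macrophage-like cluster with the Kupffer cell genes Cd5l, Vcam1 and Clec4f. In the 2 biotin negative liver samples with enough of these cells, Cd300e stood at 119 and 111 CPM, Adgre4 at 224 and 239, and Treml4 at 158 and 239. The 3 biotin positive liver samples gave Cd300e levels of 64.2, 155 and 117 and Treml4 levels of 128, 212 and 190. In the 2 biotin positive bone samples the same cluster held Cd300e at 17.0 and 3.18, Treml4 at 79.2 and 41.4, and Adgre4 at 215 and 146. Of the other genes, Ace reached at most 22.6, Spn at most 22.6 and Eno3 at most 12 in any of its 7 samples. Pou2f2 stood at 65.9 to 573 in it.

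The 3 receptors had close profiles over the 21 classes. Pearson's r on log levels was 0.938 for Cd300e with Adgre4, 0.938 for Adgre4 with Treml4 and 0.905 for Cd300e with Treml4, given as a description since the classes share libraries and depth. Among the other pairs the highest r was 0.641, for Eno3 with Spn, and Ace had no r above 0.478. The starts of the 3 receptor genes are shown because these genes moved together over the classes. The sequences are RefSeq promoters (GRCm38.p6), 250 bases before to 50 after the start, 5′ to 3′ on the gene's strand. Capitals mark matches, on either strand, to the motifs searched: AAAGGTCA (the NBRE bound by NR4A1), ATGCAAAT (the octamer of POU factors), GAGGAAGT (a PU.1 site) and TTGCNNAA (a C/EBP core).
Cd300e, chr11:115061990-115062289, minus strand: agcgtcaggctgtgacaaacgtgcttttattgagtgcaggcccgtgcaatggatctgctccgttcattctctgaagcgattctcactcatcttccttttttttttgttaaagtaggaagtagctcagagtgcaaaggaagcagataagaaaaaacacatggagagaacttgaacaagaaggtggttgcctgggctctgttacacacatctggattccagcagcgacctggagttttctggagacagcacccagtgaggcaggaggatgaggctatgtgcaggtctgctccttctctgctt
Adgre4, chr17:55749734-55750033, plus strand: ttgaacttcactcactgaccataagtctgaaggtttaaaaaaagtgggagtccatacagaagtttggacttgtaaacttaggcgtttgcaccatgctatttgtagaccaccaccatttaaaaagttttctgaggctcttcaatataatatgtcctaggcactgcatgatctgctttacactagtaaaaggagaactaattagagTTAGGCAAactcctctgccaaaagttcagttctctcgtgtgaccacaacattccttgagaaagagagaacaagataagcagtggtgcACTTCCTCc
Treml4, chr17:48264045-48264344, plus strand: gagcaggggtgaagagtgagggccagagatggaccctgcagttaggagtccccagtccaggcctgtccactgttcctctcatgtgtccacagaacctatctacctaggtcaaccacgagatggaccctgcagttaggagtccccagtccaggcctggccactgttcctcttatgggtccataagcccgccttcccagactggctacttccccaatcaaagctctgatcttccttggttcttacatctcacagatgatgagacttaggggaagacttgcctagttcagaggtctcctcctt
Of the 8 promoters found for the 7 genes (2 for Ace), only that of Adgre4 held a match, 1 to the PU.1 letters and 1 to the C/EBP letters. Over all 32851 promoters of that length, 3.20% held the PU.1 letters, 10.8% the C/EBP letters, 1.51% the NBRE and 1.74% the octamer. The 3 windows differed in base composition, with 48% G or C in Cd300e, 40.3% in Adgre4 and 54.3% in Treml4.

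In the GENCODE M21 annotation of GRCm38, all 7 genes are protein-coding. Pou2f2 lies at chr7:25087344-25179726 and Spn at chr7:127132232-127137823, both on the minus strand. Eno3 lies at chr11:70657202-70662513 and Ace at chr11:105967945-105989964, on the plus strand, and Cd300e at chr11:115051917-115062177, on the minus strand. Treml4 lies at chr17:48264295-48275360 and Adgre4 at chr17:55749984-55853662, on the plus strand. Pou2f2, Ace and Adgre4 overlap annotated antisense genes, and Pou2f2 also Mir6537 on its own strand.

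Ace had its second site in some endothelial-like cells, and the enzyme is known from the endothelium of the lung. In an endothelial-like cluster it stood at 1267 and 1195 CPM in the biotin positive lung samples 1 and 2, from 178 and 19 cells, above every nonclassical-like value of the intracardiac samples, the highest of which was 634. The same cluster held 67.8 and 120 in biotin positive brain samples and 225 in 1 biotin negative brain sample. The lung values thus lay far above the brain values within this cluster. Another endothelial-like cluster, seen in liver, held less, at 43.7 ± 29.1 (SD, n = 4) in biotin negative and 74.3 ± 58.2 (SD, n = 3) in biotin positive samples.

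Pou2f2 was shared with B cells, in which OCT2 is best known. Its mean was 453 ± 87.5 CPM (SD, n = 16) in B cell-like and 720 ± 291 (SD, n = 15) in nonclassical-like cells of the biotin negative samples, with overlapping ranges. B cell-like means ran from 395 ± 102 (SD, n = 4) in biotin negative brain to 523 ± 70.4 (SD, n = 2) in biotin positive brain. Microglia-like cells of 4 biotin positive brain samples held 394 ± 105 (SD, n = 4). In the biotin negative IIA samples the B cell-like mean was the higher one, with 681 ± 66.0 (SD, n = 6) in B cell-like and 476 ± 144 (SD, n = 6) in nonclassical-like cells, and the ranges overlapped. Over all IIA samples, both sorts together, the nonclassical-like mean was above the B cell-like one, at 715 ± 385 (SD, n = 9) and 650 ± 122 (SD, n = 8), again with overlap.

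Spn was also present in NK cell-like and T cell-like cells. Its mean was 198 ± 82.0 (SD, n = 15) in nonclassical-like monocytes, 180 ± 64.6 (SD, n = 16) in NK cell-like, 127 ± 37.6 (SD, n = 16) in T cell-like and 109 ± 29.4 (SD, n = 10) in plasmacytoid dendritic cell-like cells. An unnamed cluster, at 146 ± 61.4 (SD, n = 8), lay between the NK cell-like and T cell-like classes. Neighbours in this order did not differ beyond their spread. B cell-like cells held less, 21.8 ± 18.7 (SD, n = 16). In the biotin negative IIA samples Spn had a mean of 136 ± 61.4 (SD, n = 6) in nonclassical-like monocytes, below an unnamed cluster at 164 ± 26.1 (SD, n = 6). Over all IIA samples the nonclassical-like mean was 186 ± 102 (SD, n = 9), below another unnamed cluster at 218 ± 84.3 (SD, n = 7).

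**Figure D2:**
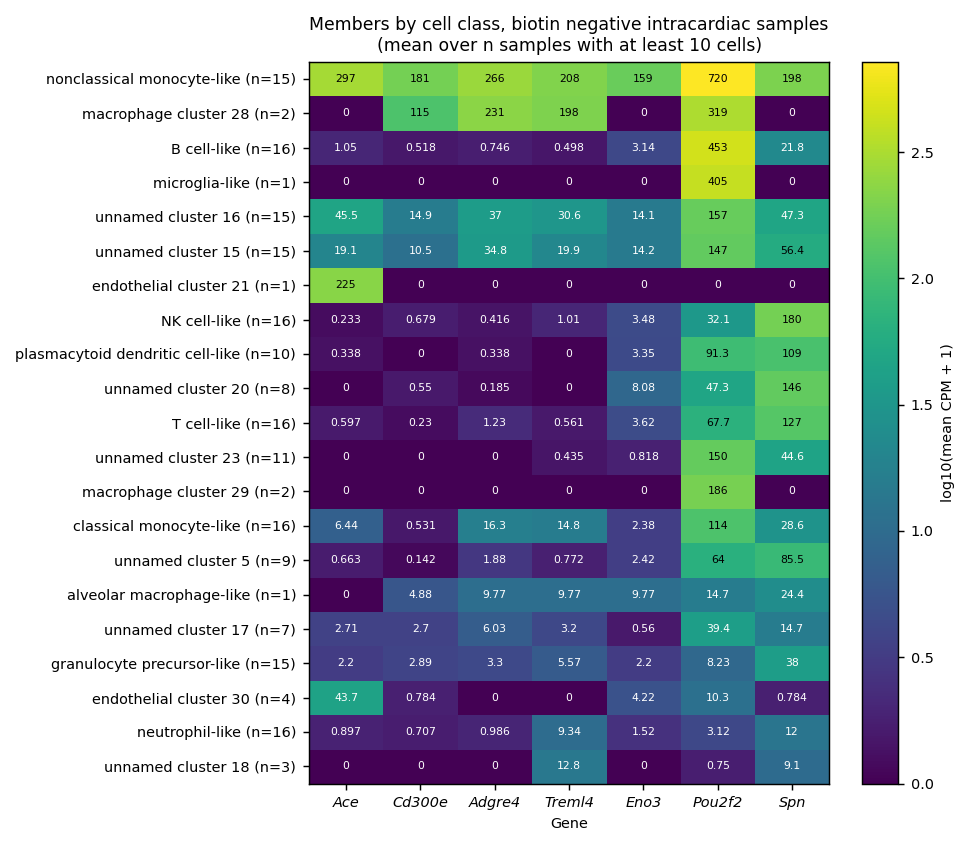
Mean level of each gene, in CPM, by cell class in the biotin negative intracardiac samples; colour is log10 of the mean plus 1, and n is the number of samples with at least 10 cells of the class. Nonclassical-like monocytes hold the highest mean in every column, Cd300e, Adgre4 and Treml4 share macrophage cluster 28 (means of 115, 231 and 198), Pou2f2 the B cell-like class (453) and Spn the NK cell-like class (180).

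Among 2053 genes seen in at least 20% of nonclassical-like cells, likeness was measured as Pearson's r between a gene's log level and the mean standardised log level of the 7 over the 21 classes. The closest were Pot1b, with an r of 0.803, Skint3 with 0.778, Smpdl3b with 0.776, Ear2 with 0.760 and Krt80 with 0.747. Grk3, Ppp2r5c, Fam49a, Grk2 and Ikbkb followed, with r from 0.739 to 0.701. Ear2 is in the list that named the class and belongs to a family of near-identical genes whose reads can be split by counting. Krt80 and Grk3 were themselves among the leading genes of the nonclassical-like cluster. The 7 did not share 1 pattern equally. With the mean of the other 6, r was 0.24 for Spn, 0.31 for Ace and 0.34 for Pou2f2, and 0.72 to 0.85 for the rest.

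The comparison of biotin positive with biotin negative cells asks whether monocytes near tumour cells carried more or less of the nonclassical genes. In the lung all 7 genes had a higher mean in biotin positive monocytes (both classes together), although none passed the test. Ace stood at 235, 173, 64.6 and 35.7 CPM in the 4 biotin positive lung samples and at 72.7, 40.7, 21.7 and 25.8 in the negative ones. Positive samples 1 and 2 were the high ones, and samples 3 and 4 lay within the negative range, although Ace was higher in the positive sample in 4 of 4 pairs of equal number. The log2 fold change was 1.60 ± 0.54 (SE). Cd300e stood at 81.3, 52.7, 33.5 and 48.7 against 24.6, 7.13, 17.7 and 12.4, without overlap, with a log2 fold change of 1.78 ± 0.71 (SE). Adgre4, at 178, 128, 83.8 and 94.1 against 63.7, 27.8, 39.1 and 30.8, did not overlap either, and its log2 fold change was 1.53 ± 0.49 (SE). Among all 9503 genes tested, 1.7% had every positive lung sample above every negative one.

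Eno3, Treml4, Spn and Pou2f2 overlapped between the sorts in the lung. Their log2 fold changes were 1.58 ± 0.52, 1.28 ± 0.44, 1.03 ± 0.37 and 0.49 ± 0.34 (SE). The biotin positive values of Pou2f2 ran from 136 in sample 2 to 460 in sample 1, around the negative range of 123 to 257, and its log2 fold change was -0.024 without positive sample 1. In edgeR's quasi-likelihood test with Benjamini-Hochberg adjustment over 9503 genes, 0 of the 7 passed a false discovery rate of 0.05, beside 0% of all genes, and the adjusted p of each was 1.00. At an unadjusted p under 0.05 stood 6 of the 7 and 371 of all 9503 genes; DESeq2 called 1 gene and none of the 7. The median log2 fold change was 1.53 for the 7 and -0.03 for all genes tested. It was 0.71 for the 13 other nonclassical markers, -0.34 for the 12 classical markers and -0.52 for 12 macrophage markers. From each list 0 passed. The summed level of 10 neutrophil markers was 8537 to 20569 CPM in positive and 7926 to 24548 in negative lung monocytes.

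In the summed monocytes, a larger share of nonclassical-like cells and a higher level per such cell cannot be told apart, so both were measured. The share of nonclassical-like cells among lung monocytes was 55.6%, 52.6%, 32.8% and 31.7% in the biotin positive samples, from 124, 19, 64 and 41 monocytes, and 21.2%, 14.7%, 16.3% and 15.9% in the negative ones. The means were 43.2 ± 12.7% and 17.0 ± 2.86% (SD, n = 4 each), a difference of 26.2 percentage points in the same direction in 4 of 4 pairs of equal number. An exact two-sided permutation test gave p = 0.0286, the smallest that 4 against 4 samples can give, and 0.143 after adjustment over the 5 comparisons of the share. With samples paired by replicate number, exact sign flips gave p = 0.125, the smallest for 4 pairs. Leaving out any 1 of the 8 lung samples left a difference of 22.0 to 29.99 points and an exact p of 0.0571, the smallest then possible.

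Within the nonclassical-like class of the lung, 0 of the 7 genes passed edgeR's test over 4810 genes, beside 0% of all genes. An unadjusted p under 0.05 was found for 0 of the 7 and 102 of all genes, and 0 genes were called by DESeq2. The largest log2 fold change was that of Treml4, 0.47 ± 0.31 (SE). Its levels in the class were 369, 377, 186 and 667 in biotin positive and 314, 234, 226 and 299 in negative samples, which overlapped. Cd300e and Adgre4, separated in all monocytes, had log2 fold changes of 0.25 ± 0.46 and 0.42 ± 0.35 (SE) within the class. The median over the 7 was 0.13 within the class, against 1.53 in all monocytes of the same samples.

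**Figure D3:**
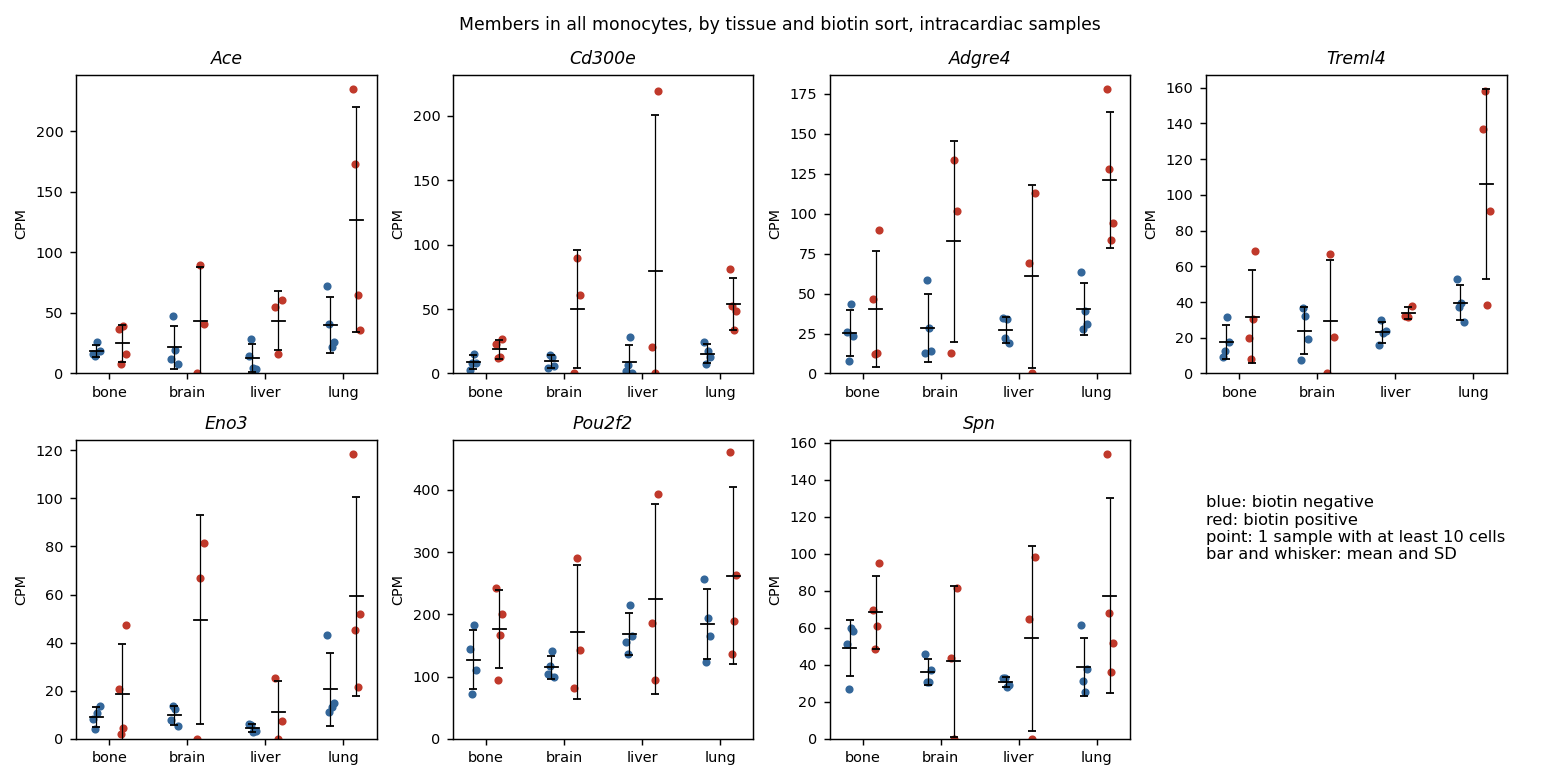
Level of each gene, in CPM, in all monocytes of each intracardiac sample by tissue, blue for biotin negative and red for biotin positive samples; bars and whiskers are the mean and SD, and points are samples with at least 10 monocytes. Cd300e and Adgre4 are separated in the lung, where the lowest positive values (33.5 and 83.8) lie above the highest negative ones (24.6 and 63.7).

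In the liver the 7 genes again had positive log2 fold changes, from 0.29 to 2.53, and none passed the test. That of Eno3 turned to -0.16 without positive sample 1 and that of Pou2f2 to -0.19 without positive sample 3. Median log2 fold changes were 0.51 for the 13 other nonclassical, 0.94 for 12 macrophage and -0.28 for the 12 classical markers. None of these markers passed. Cd300e stood at 20.5, 0 and 219 CPM in the 3 biotin positive samples with enough monocytes and at 2.12, 6.38, 28.5 and 0 in the negative ones. Positive sample 3 set the high end and positive sample 2, with 10 monocytes, held no Cd300e UMI. Ace stood at 54.9, 15.9 and 60.4 against 14.6, 28.5, 4.17 and 3.41, and overlapped through positive sample 2. Treml4, at 32.0, 31.7 and 37.7 against 15.7, 29.7, 22.6 and 23.9, did not overlap, by a narrow margin. The value of 31.7 came from the 10 monocytes of positive sample 2 and so from few UMIs. Of all genes tested, 4.21% had every positive liver sample above every negative one. Here 0 of the 7 passed edgeR's test, beside 0% of 9503 genes, 4 of the 7 and 276 of all genes stood under an unadjusted p of 0.05, while 0 genes were called by DESeq2. The nonclassical-like share was 19.7%, 20.0% and 32.4% in positive and 4.91%, 15.1%, 11.8% and 12% in negative samples, without overlap. Its exact permutation p was 0.0571, the smallest that 3 against 4 samples can give, and 0.143 adjusted.

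Within the nonclassical-like class, liver sample 3 stood apart in both sorts. Its Cd300e levels were 869 in the positive and 562 in the negative cells, against 248 in positive sample 1 and 127 and 74.7 in negative samples 1 and 2. Its Ace levels, 240 and 35.2, were the lower ones within each sort. The macrophage gene C1qa stood at 959 and 1448 CPM in the sample 3 cells and at 38.0 to 194 in the other 3 samples. The Kupffer cell gene Clec4f, at 89.9 and 7.03 against 0 to 54.8, and the summed 13 macrophage markers, at 5636 and 8564 against 2641 to 7804, overlapped the other samples. Their part in the Cd300e levels was not tested. Adgre4, at 457 and 420 in the positive and 298, 144 and 323 in the negative samples, and Spn, at 387 and 390 against 222, 134 and 204, did not overlap, as for 8.98% of the 4810 genes tested. The log2 fold changes in the class were positive for 6 of the 7, from -0.09 for Treml4 to 0.99 for Spn, with a median of 0.88 against 1.16 in all liver monocytes. With 2 positive and 3 negative samples, 0 of the 7 passed edgeR's test in this class, beside 0% of 4810 genes. An unadjusted p under 0.05 was reached by 0 of the 7 and 196 of all genes, and 0 were called by DESeq2. The count of the 7 stayed at 0 with any 1 of the 5 samples left out, where a lone sample is assumed to vary like the other groups.

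In bone, the 7 genes had log2 fold changes of 0.40 to 1.19 in biotin positive monocytes, with overlapping sorts for all of them, where 1.17% of all genes tested had every positive sample above every negative one. The value of Ace turned to -0.040 without positive sample 1. Median log2 fold changes were 0.26 for the 13 other nonclassical, 0.47 for 12 macrophage and -0.15 for the 12 classical markers. Eno3 showed how the spread arose, with 20.8, 2.01, 4.37 and 47.5 CPM in positive against 8.26, 3.93, 10.9 and 13.6 in negative samples, so that positive samples 1 and 4 were high and samples 2 and 3 low. The nonclassical-like share was 21.02%, 14.3%, 20.6% and 42.9% against 6.92%, 12.7%, 21.6% and 17.5%, with an exact permutation p of 0.2. In brain, positive samples held 20, 10 and 10 monocytes, and the share was 0%, 50% and 40% against 6.76%, 22.1%, 13.8% and 8.47% (exact permutation p = 0.286). The log2 fold changes in brain ran from -0.64 for Treml4 to 1.64 for Cd300e, positive for 6 of the 7, with a median of 0.15. Brain medians were 0.33 for the nonclassical, -0.04 for the macrophage and -0.46 for the classical markers, against -0.24 for all genes. The brain positive sample 1 with 0 of 20 nonclassical-like cells held no Ace, Cd300e, Treml4 or Eno3 UMI, whereas samples 2 and 3 held 89.3 and 40.8 CPM of Ace. In edgeR, 0 of the 7 passed in bone and 0 in brain, beside 0% of 9503 genes in each. No member had an unadjusted p under 0.05 in either, against 202 and 716 of all genes, and DESeq2 called 0 and 2 genes. A test of the difference of the sort effect between the 4 tissues called 0 of the 7 and 0% of all genes in edgeR, with 0 of the 7 and 257 of all genes at an unadjusted p under 0.05, and 0 in DESeq2.

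**Figure D4:**
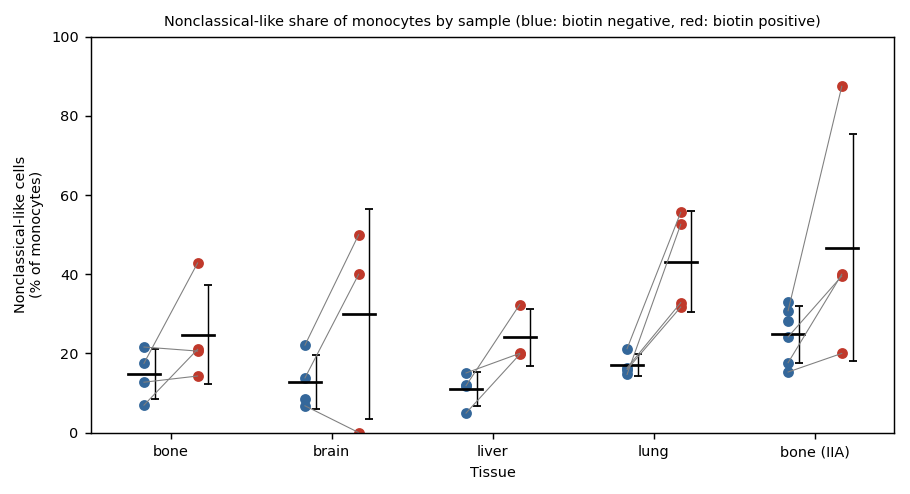
Percent of monocytes that were nonclassical-like in each sample with at least 10 monocytes, blue for biotin negative and red for biotin positive samples; grey lines join samples of equal number, and bars and whiskers are the mean and SD. The sorts do not overlap in lung (31.7% and above against 21.2% and below) and liver (19.7% and above against 15.1% and below).

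The tissue comparison asked whether monocytes of the biotin negative bone differed in these genes from those of the other organs. Over all monocytes 0 of the 7 passed edgeR's test, where 3.75% of 9503 genes were called, and DESeq2 called 313 genes and none of the 7. A fit that blocked on the replicate number called 726 genes in edgeR, and again 0 of the 7. Treml4 came closest, at 9.35, 12.3, 31.4 and 17.6 CPM in bone, where the log2 fold change was -0.81 ± 0.36 (SE) and edgeR's adjusted p was 0.350, or 0.134 with the block. Of the 13 other nonclassical markers, 1 passed: Nr4a1, the factor named above, fell in bone by 1.88 on the log2 scale, with an SE of 0.41 and an edgeR adjusted p of 0.00430. Nr4a1 is also an immediate early gene. None of the 12 classical markers passed. Within the nonclassical-like class 0 of the 7 passed, beside 0% of 4810 genes; an unadjusted p under 0.05 was reached by 0 of the 7 and 281 of all genes, with 0 calls in DESeq2. The block gave 11 calls there, none of them among the 7. For Ace in that class the 4 bone samples ran from 244 to 415, the 4 lung samples from 193 to 585 and the 4 brain samples from 227 to 307.9. The 3 liver samples gave 393, 239 and 35.2. For Treml4 the lung samples, at 226 to 314, lay above those of bone, at 118 to 203, and of liver, at 134 to 194, as did 0.79% of the 4810 genes tested. This contrast was singled out after the values were seen. Treml4 in brain, at 169 to 341, overlapped all of them. The Spn values of brain, 114 to 155, overlapped those of lung, 147 to 380, through 1 brain sample.

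In the IIA bone samples, Cd300e and Pou2f2 were higher in biotin positive than in biotin negative nonclassical-like monocytes. Pou2f2 stood at 1381, 1118 and 1076 CPM in positive samples 4, 5 and 6, and at 490, 385, 252, 589, 657 and 483 in the 6 negative samples. Every positive value lay above every negative one, as for 5.44% of the 4266 genes tested, and the log2 fold change was 1.25 ± 0.24 (SE), at an adjusted p of 0.00763 in edgeR. Cd300e stood at 489, 253 and 56.6 against 41.1, 62.6, 34.8, 126, 115 and 51.1. Positive samples 4 and 5 were high and sample 6 lay within the negative range, and the log2 fold change was 1.94 ± 0.47 (SE), at an adjusted p of 0.0334 in edgeR. These 2 of the 7 were called where 3.38% of 4266 genes were, 144 genes in all.

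The other 5 genes did not pass in that class. The log2 fold change of Spn was 0.85 ± 0.37 (SE), at an edgeR adjusted p of 0.243. That of Adgre4 was 0.35 ± 0.27 (SE), at 0.570. Ace, Treml4 and Eno3 had negative log2 fold changes, of -0.32, -0.52 and -0.09. For Ace and Eno3 the plain mean of CPM was nonetheless higher in the positive samples, so that their direction is not settled. Ace itself stood at 42.5, 194 and 849 in positive samples 4, 5 and 6, so that the sample highest in Cd300e was the lowest in Ace. Of the 12 other nonclassical markers tested, 5 rose, among them Fabp4, a fatty acid carrier, by 3.14 ± 0.29, Tcf7l2, a transcription factor of the Wnt pathway, by 2.47 ± 0.37, Clec4a3, a C-type lectin, by 1.60 ± 0.33, and Gngt2, a G protein subunit, by 1.03 ± 0.24 (log2, SE). Of the 10 classical markers tested, 2 fell. Ccr2, the chemokine receptor of classical monocytes, fell by 2.59 on the log2 scale (SE 0.52) and Ly6c2 by 1.23 (SE 0.32). The median log2 fold change was 0.32 over the 12 nonclassical and -0.80 over the 10 classical markers, against -0.10 for all genes. Of the 6 macrophage markers tested, 3 rose, and their median was larger, at 3.73 over the 6.

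These positive sums came from 14, 17 and 10 cells, and 3 further positive samples with 3, 2 and 3 such cells were not used. Median depths of the cells used were 2058, 1472 and 1519 UMIs, so that low levels of Ace, Cd300e or C1qa rest on few UMIs. Macrophage and neutrophil markers differed among these samples as well. The summed macrophage markers stood at 9904, 5381 and 2095 CPM in the positive samples and at 1049 to 2437 in the negative ones, C1qa at 1891, 1014 and 56.6 against 0 to 145, and Clec4f at 0 in all 9 samples. The summed neutrophil markers stood at 1254, 66009 and 3624 against 37282 to 71692. Positive sample 6 lay within the negative range for both macrophage values, as positive sample 5 did for the neutrophil sum. Their part in the Cd300e and Pou2f2 levels was not tested. Cells among the 5% of highest doublet score made up 13.9% of the IIA nonclassical-like class, and both calls held without them. Both calls were lost without positive sample 4, where the edgeR adjusted p was 0.382 for Cd300e and 0.0918 for Pou2f2. Without negative sample 1, 2 or 6 or positive sample 5 only the Pou2f2 call was left. In a fit that blocked on the replicate number both calls were lost, although IIA numbers were not shown to pair samples. With the 7 genes kept among those that build the clusters, fewer than 2 positive samples held 10 such cells, and no test could be made.

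**Figure D5:**
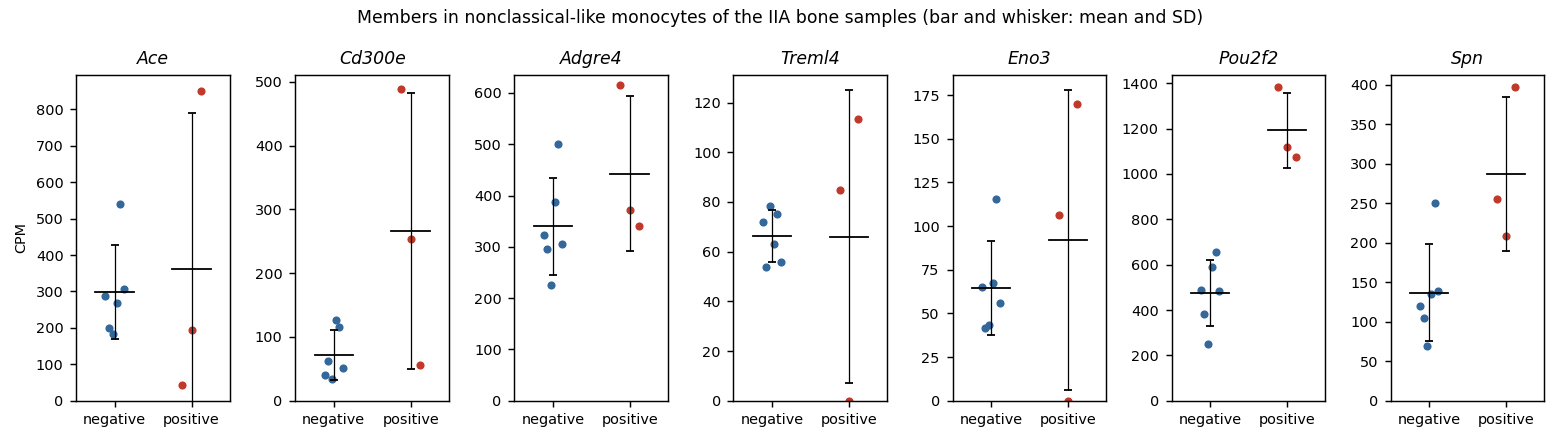
Level of each gene, in CPM, in nonclassical-like monocytes of the IIA bone samples, 6 biotin negative (blue) and 3 biotin positive (red); bars and whiskers are the mean and SD. Pou2f2 is the gene without overlap, with positive values of 1076 to 1381 and negative values of 252 to 657, while Ace spreads from 42.5 to 849 in the positive samples.

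Over all monocytes of the IIA samples none of the 7 passed edgeR's test, where 0.0229% of 8742 genes, 2 genes, did. Of the 7, 3 had an unadjusted p under 0.05, against 727 of all genes, and DESeq2 called 54 genes, Spn among them. Without the filter on low counts edgeR called 147 of 17796 genes, among them Cd300e, Pou2f2 and Spn. Of the 7, a fit that blocked on the replicate number called Cd300e alone, although IIA numbers were not shown to pair samples. Cd300e stood at 8.41, 356, 62.2 and 6.05 in positive samples 3, 4, 5 and 6 and at 3.88 to 25.3 in the negative ones, a log2 fold change of 2.54 ± 0.76 (SE) at an edgeR adjusted p of 0.302. Pou2f2 had one of 1.10 ± 0.30 (SE) at 0.229 in edgeR, and Spn one of 0.90 ± 0.22 (SE) at 0.191. With the 7 genes kept in the clustering, the Cd300e value turned to -0.12. The nonclassical-like share was 20.0%, 87.5%, 39.5% and 40% in positive samples and 15.3% to 33.0% in negative ones, higher in 4 of 4 pairs of equal number. Its difference of 21.9 percentage points had an exact permutation p of 0.0857, and it fell to 4.97 points with the 7 genes kept in the clustering.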

How the data were processed

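Single-cell RNA-seq was measured in 32 intracardiac samples and 1 pooled IIA sample. The deposited values are UMI counts per gene and barcode, written by Cell Ranger 6.1.2 for the intracardiac and 7.1.0 for the IIA matrices, per the file headers. The submitters' processing notes name Cell Ranger, Seurat and mm10; intracardiac samples were deposited demultiplexed, per the labels. Libraries counted transcript 3' ends (CellPlex) or 5' ends (TotalSeqC), per the labels' protocols, so that counts of a gene do not scale with its length and can differ between the 2 kinds. IIA hashtags were matched to samples by the number in their names.

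Cells under 500 UMIs or 200 genes, or above 15% mitochondrial UMIs, were left out. IIA cells needed at least 10 counts of a hashtag and 3 times the second. Each experiment was clustered with scanpy 1.11.5 (2000 variable genes without the 7 members, 30 principal components, 15 neighbours, Leiden resolution of 1), and clusters were named from marker lists (at least 3 markers). Doublets stayed in; leaving out the 5% of cells per sample with the highest Scrublet score was an alternative. Members and lists were chosen with earlier results of these data known. The genes named are the 7 members, up to 4 markers of lowest p per list, and the 10 of most like pattern.

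Counts were summed per sample and class (at least 10 cells) and tested with edgeR 4.0.16 (TMM, filterByExpr, quasi-likelihood; checked on simulated data), with Benjamini-Hochberg adjustment over all genes tested and a false discovery rate of 0.05. The intracardiac groups shared 1 fit, and the IIA samples had their own. DESeq2 1.42.0 was an alternative. Shares were tested with exact two-sided permutation tests (scipy 1.17.1). Replicate numbers were checked for pairing: deviations from group means correlated above 0.1 for every same-number pair in bone, liver and lung monocytes and in lung nonclassical-like cells, and not in brain (lowest r 0.07) or IIA monocytes (lowest r 0.0262). Of the monocyte pairs 16 of 18 passed, and of the nonclassical-like pairs 7 of 9. All 18 monocyte pairs, and 7 of the 9 others, correlated better with their own number than with any other. The main tests did not block on the number, and a block was an alternative. Counts cover molecules sampled, so that depth limits precision.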

Additional observations from a re-analysis of the deposited data

Results flagged for a closer look

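Samples far from the others of their group were looked for in 99 groups of member levels and shares, and 4 were found, where chance gives about 1 in 20. In monocytes of the IIA biotin positive samples, Cd300e stood at 356 counts per 1000000 (CPM) in replicate 4 and at 6.05 to 62.2 in the other 3. In biotin negative lung monocytes, Eno3 stood at 43.0 in replicate 1 and at 11.1 to 14.9 in the other 3. In nonclassical-like monocytes of the IIA biotin negative samples, replicate 5 stood apart for Ace, at 541 against 182 to 306.5, and for Eno3, at 115 against 41.7 to 67.2.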

How the results depend on the processing

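Of the 11 comparisons that counted members called, 9 gave 0 of 7 under every alternative run (DESeq2, DESeq2 size factors, no filter on low counts, replicate block, doublets left out, members kept in the clustering, at least 20 cells, only the compared groups, and each replicate left out, where these could be fitted). In the IIA monocytes the main count of 0 became 1 with DESeq2 (Spn), 3 without the filter on low counts (Cd300e, Pou2f2 and Spn) and 1 with the replicate block (Cd300e, edgeR adjusted p = 0.0204). In the IIA nonclassical-like cells the count of 2 became 0 with the replicate block, where edgeR called 61 genes and the adjusted p was 0.191 for Cd300e and 0.144 for Pou2f2, and it ran from 0 to 2 over the samples left out. IIA numbers were not shown to pair samples: 1 number gave a pair correlation of -0.07 in this class. In IIA monocytes each pair correlated best with its own number, at r of 0.03 to 0.25. The cause of the changed counts was not tested. The members kept in the clustering and the minimum of 20 cells gave no test there. The bone and brain comparisons of sorts within the nonclassical-like class were not run, with fewer than 2 positive samples of 10 cells. Over all genes, the replicate block raised the calls of biotin negative bone against the other organs from 356 to 726. The block changed no other count of members.

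The lung share difference of 26.2 points had an exact permutation p of 0.125 with the replicate block (sign flips, 26.2 points) and 0.0571 at a minimum of 20 monocytes (23.0 points); both are the smallest p those designs allow. Over single samples left out it ran from 22.0 to 29.99 points. The IIA share difference was 23.8 points without doublets (exact permutation p = 0.0381), and 8.33 to 30.8 points over single samples left out. That of bone ran from 3.95 to 13.5, of brain from 7.22 to 32.2 and of liver from 8.92 to 15.2 points. Log2 fold changes turned negative, over single samples left out, for Ace in bone (range -0.040 to 0.76, lowest without positive replicate 1), in liver for Eno3 (-0.16 to 2.19, without positive replicate 1) and Pou2f2 (-0.19 to 0.54, without positive replicate 3), in lung for Pou2f2 (-0.024 to 0.69, without positive replicate 1), and for Cd300e in IIA monocytes with the members kept in the clustering (-0.12); none was called. Biotin positive sums with as few as 10 cells limit the comparisons of sorts.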

Other observations

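Treml4 was also seen in granulocytes. In the IIA biotin negative samples its mean was 21.3 ± 5.04 CPM (SD, n = 6) in neutrophil-like cells and 16.7 ± 3.74 (SD, n = 6) in granulocyte precursor-like cells, against 66.3 ± 10.3 (SD, n = 6) in nonclassical-like monocytes. In 2 unnamed IIA clusters that held few other markers, it was 54.1 ± 39.0 (SD, n = 4) and 48.0 ± 22.0 (SD, n = 5). In the intracardiac biotin negative samples the neutrophil-like mean was 9.34 CPM, where the mean of Cd300e was 0.707 and that of Adgre4 0.986.

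Spn in NK cell-like cells had lower means in biotin positive than in biotin negative samples of the lung, at 152 ± 27.6 (SD, n = 3) and 222 ± 61.7 (SD, n = 4), and of the liver, at 104 ± 11.8 (SD, n = 2) and 209 ± 97.7 (SD, n = 4) CPM. In the brain they were 95.6 ± 37.1 (SD, n = 3) and 150 ± 20.3 (SD, n = 4), and in bone, where the positive mean was the higher one, 155 ± 92.7 (SD, n = 3) and 140 ± 17.9 (SD, n = 4). These differences were not tested.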
